A study of Mus musculus with 16 samples.

Results

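The interneuron markers described here are 10 genes, Gad1, Gad2, Sst, Pvalb, Vip, Npy, Calb1, Calb2, Cck and Lhx6, taken as a fixed list of names and with every bead array probe that the platform annotation gives to each of them alone. They have 16 probes among the 45281 on the array, and they are 10 of the 18524 named genes with a probe. Their signal was compared over 8 tumours, called high-grade glioma in the study's title, 5 dorsal brain controls and 3 ventral brain controls, with 1 array for each tissue. The tumours arose in mice whose tumour suppressors were knocked out by an inducible Cre recombinase. The sources used here do not name the deleted genes, the region of a tumour, or the age, sex and strain of the mice, nor say whether the control mice carried the Cre or a floxed allele. The labels call the tumours independent tissues and the controls biological replicates, and number the tumours 2, 3, 5, 6, 7, 8, 9 and 10. The study's design text counts 10 tumours, and the other 2 were not analysed here.

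GABAergic interneurons are the inhibitory cells of local circuits. Gad1 and Gad2 encode the enzymes that make GABA from glutamate and are used by every GABAergic neuron, projection neurons of the striatum included. Lhx6 encodes a transcription factor of interneurons born in the medial ganglionic eminence. Most of those cells become parvalbumin (Pvalb) or somatostatin (Sst) cells, and many Sst cells also make neuropeptide Y (Npy). Vip, Calb2 and part of the Cck cells come mainly from the caudal eminence. Several of the markers are not limited to interneurons. Cck is also made by cortical pyramidal neurons, Npy and Sst by hypothalamic neurons, and Calb2 and Calb1 by many neurons of the thalamus, hypothalamus and midbrain.

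The promoters of the peptide genes Sst and Vip are shown because these are the classic genes through which cAMP-responsive transcription was worked out, and because both are markers whose signal was low in most tumours. RefSeq promoter sequences of build GRCm38.p6, running from 250 bases before to 50 bases after a transcript's start, were on hand for 8 of the 10 genes, 11 promoters in all. Capitals mark the motifs TGACGTCA (the full cAMP response element), TGACGT (its shorter form, which lies within it) and TATAAA (the TATA box). The Sst promoter is at chr16:23890795-23891094 on the minus strand and the Vip promoter is at chr10:5638968-5639267 on the plus strand, each printed along its gene's own strand.
Sst: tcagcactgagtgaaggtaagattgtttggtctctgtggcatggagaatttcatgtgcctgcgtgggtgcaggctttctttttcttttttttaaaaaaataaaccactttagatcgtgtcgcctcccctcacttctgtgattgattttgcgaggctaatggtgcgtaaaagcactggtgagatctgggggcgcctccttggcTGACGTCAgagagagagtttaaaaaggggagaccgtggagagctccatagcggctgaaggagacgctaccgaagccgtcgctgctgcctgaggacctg
Vip: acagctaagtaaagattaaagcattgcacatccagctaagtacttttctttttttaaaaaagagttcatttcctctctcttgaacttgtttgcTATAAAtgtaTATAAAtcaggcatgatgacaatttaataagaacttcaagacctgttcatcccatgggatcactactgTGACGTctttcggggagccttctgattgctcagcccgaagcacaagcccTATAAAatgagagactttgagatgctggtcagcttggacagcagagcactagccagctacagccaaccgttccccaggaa
TGACGTCA began 48 bases before the start of Sst and was in no other member's promoter, and 1.79% of 32851 RefSeq promoters of the same length held it. TGACGT was in the Sst promoter and began 79 bases before the start of Vip, and 7.51% of all promoters held it on either strand. TATAAA began 157, 147 and 30 bases before the start of Vip, on the gene's own strand. On the opposite strand it lay 141 to 136 bases before the start of Gad1. In a promoter of Lhx6 it lay on the opposite strand at bases 4 to 9 after the start. On either strand, 13.6% of all promoters held it. The homeodomain motif TAATTA was in none of the 11, against 5.29% of all. CAGCTG was searched for as well and was in 1 of the 11, a promoter of Lhx6, against 16.3% of all. These matches describe letters in a window and no binding was measured.

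Of the 16 probes, 12 were detected on enough arrays to be tested, and they belong to 9 genes. A probe counted as detected on an array at a detection p-value under 0.05, and it was tested when detected on at least 3 arrays. The single probe for Calb1, Gad2 probe 2, Vip probe 2 and Lhx6 probe 2 were detected on 0 of 16 arrays, so Calb1 has no measurement here beyond a log2 signal between 4.27 and 4.52 that was not above background. Probes of a gene are numbered from the brightest to the dimmest, and a gene named without a probe number has 1 probe or is given by its brightest probe. All signals below are normalised log2 values and all differences are log2 differences. Tests were made with limma over all 23131 probes that passed the detection rule, with Benjamini-Hochberg adjustment over those probes and an adjusted p under 0.05 as the threshold.

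Between 38.8% and 45.1% of probes were detected on an array. The ventral label went with its tissue markers, and the dorsal controls were not alike. The mean log2 signal of 10 thalamus and hypothalamus genes was 8.63 to 10.3 in ventral controls and 5.31 to 5.49 in dorsal controls. Striatal projection neuron genes, 9 in number, averaged 10.9 and 11.6 in dorsal controls 4 and 5, against 7.15 to 7.26 in dorsal controls 1, 2 and 3. The mean of 4 cell division genes was 7.74 to 9.27 in tumours, 4.63 to 5.07 in dorsal controls and 4.50 to 4.65 in ventral controls. Arrays whose column names begin with the same number were taken to lie on the same chip, which gave 3 chips. Tumours 8, 9 and 10 shared chip 1 with dorsal control 1 and ventral control 1, tumours 2 and 3 shared chip 2 with dorsal controls 2, 3 and 4, and tumours 5, 6 and 7 shared chip 3 with dorsal control 5 and ventral controls 2 and 3.

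Gad1, Gad2, Sst and Pvalb were lower in tumours than in either control region. Vip, Npy, Cck and Lhx6 passed as lower against dorsal controls alone, and Calb2 against ventral controls alone. Of these genes, Npy and Calb2 also passed between the control regions. Vip and Cck did not (adjusted p = 0.279 and 0.0583 by limma). Nor did Lhx6, which met the detection rule only with the dorsal controls counted, so that its calls are a description. Against the mean of the 2 control groups, 11 of the 12 tested probes were lower in tumours and 0 were higher, with a median log2 difference of -2.96. By comparison 25.0% of all 23131 probes were lower and 25.8% were higher, with a median of 0.01. Against dorsal controls 9 probes were lower and 0 higher (background 22.8% lower and 24.0% higher), and against ventral controls 7 were lower and 0 higher (background 18.9% and 17.9%). By gene, with the brightest probe of each, 9, 8 and 5 of the 9 tested genes were lower in these comparisons and 0 were higher. Over all 11755 genes the shares lower were 26.6%, 24.0% and 20.9%, and the shares higher were 27.2%, 25.8% and 19.3%. The counts leave out 4 probes, a probe could meet the detection rule through the controls alone, and probes of a gene are not independent of each other, so the counts are a description. Median scaling of the arrays in place of quantiles moved the median of all probes to 0.14, 0.19 and 0.12 in these comparisons and the share of calls that were higher to 62.2%, 65.3% and 57.8%, against 50.8%, 51.3% and 48.6%. Under it 10, 9 and 7 of the marker probes were lower and 0 were higher. In bulk tissue, fewer cells of a type and less RNA per cell cannot be told apart.

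**Figure D1:**
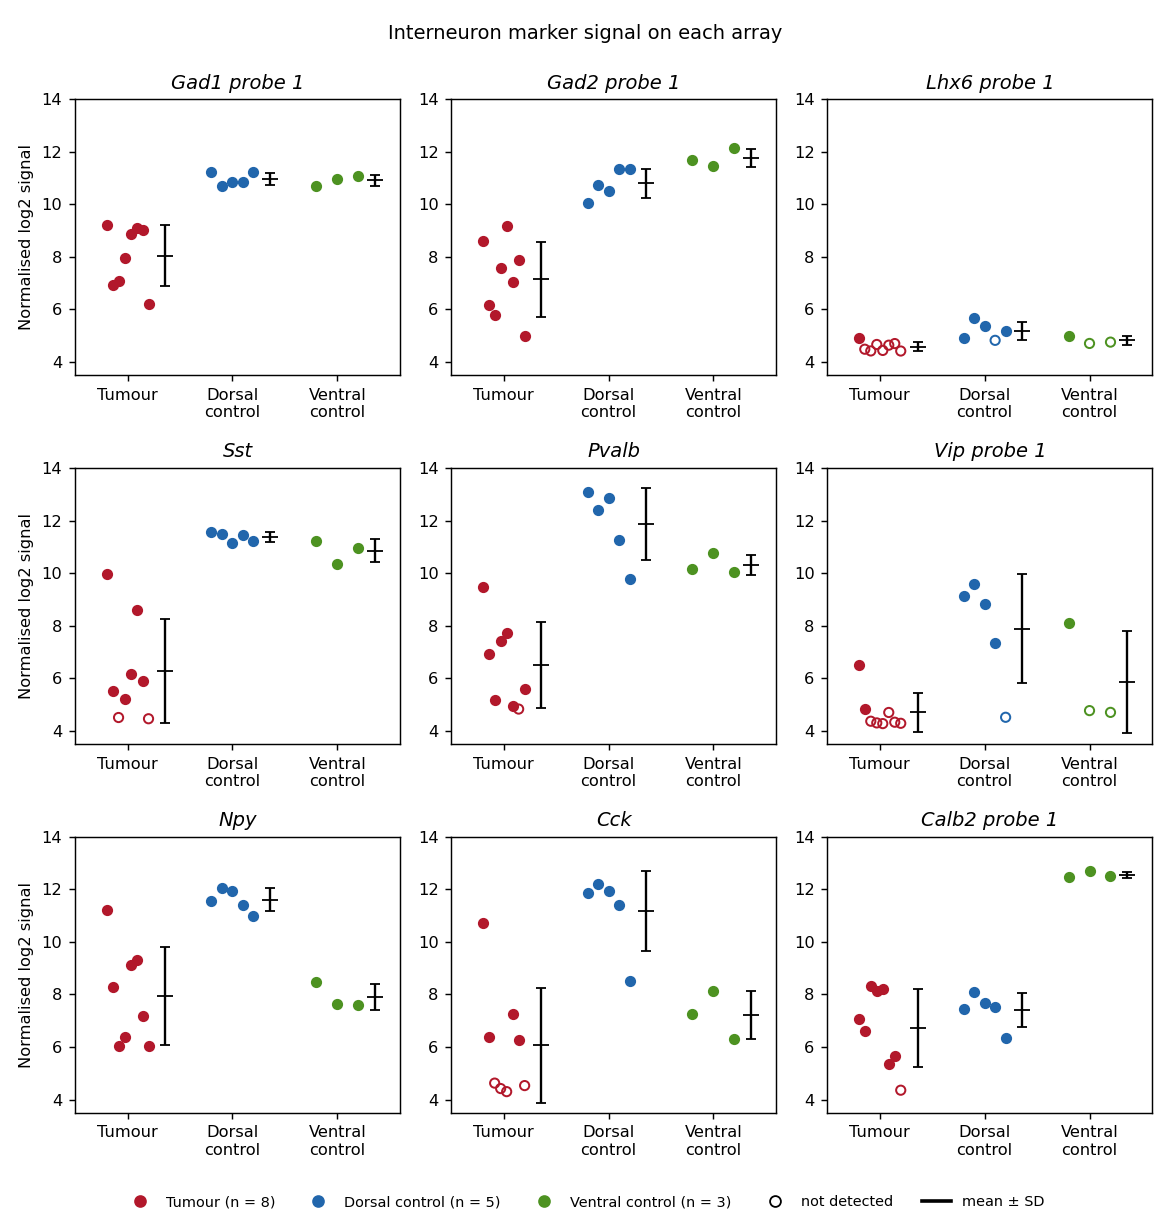
Normalised log2 signal of the brightest probe of each tested gene on every array, by group, with tumours on the left; filled points are detected, open points are not, and bars give the mean and SD of a group (n = 8, 5 and 3). Gad1, Gad2, Sst and Pvalb lie lower in all 8 tumours than in every control, while Npy in tumours overlaps both control groups and Calb2 overlaps the dorsal controls.

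Gad1, which encodes the form of glutamate decarboxylase that makes most of the cell's GABA, varied least over the 8 controls among the 9 genes, with an SD of 0.21. The tumours ran from a log2 signal of 6.21 in tumour 10, with a median of 8.42, to 9.22 in tumour 2. The dorsal controls had 11.22, 10.70, 10.85, 10.86 and 11.24, and the ventral controls had 10.70, 10.95 and 11.09. Every tumour was lower than every control, and the regions overlapped fully. Gad1 (chr2:70561303-70602014) was lower by a log2 difference of -2.92 ± 0.46 (SE) against dorsal controls, adjusted p = 6.77e-05 by limma, which is 7.57-fold, and by -2.86 ± 0.54 against ventral controls, adjusted p = 0.000604. Ventral minus dorsal controls differed by -0.06, with a 95% interval of -1.30 to 1.18. A second probe gave the same picture, at -3.01 and -3.03 against dorsal and ventral controls (adjusted p = 4.18e-05 and 0.000317).

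The third Gad1 probe did not follow the others. Its log2 signal was 5.07 to 6.94 in tumours, with a median of 5.73, and 5.15, 5.78, 5.26, 6.18 and 7.81 in dorsal controls 1 to 5. The ventral controls had 5.90, 5.55 and 5.93. The probe was detected on all 16 arrays, and its groups overlapped throughout. The tumour difference of this probe was -0.20 against dorsal controls (95% interval -1.07 to 0.67, adjusted p = 0.713) and 0.04 against ventral controls (95% interval -0.99 to 1.08). The sign of these small differences changed between settings. On the 3 chips the tumour minus dorsal difference of this probe was 1.20, -0.15 and -2.33. The sources used here do not say which transcript of Gad1 each probe reads.

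Gad2 encodes the form of the enzyme found at synaptic terminals, and its mean log2 difference was larger than that of Gad1. Tumours ran from 4.98 in tumour 10 to 9.19 in tumour 7 on the log2 scale, with a median of 7.30. The dorsal controls had 10.05, 10.73, 10.53, 11.33 and 11.35, and the ventral controls had 11.67, 11.46 and 12.13. All 8 tumours were below every control, and all 3 ventral controls were above every dorsal control. The log2 difference was -3.65 ± 0.57 against dorsal controls (adjusted p = 7.14e-05) and -4.60 ± 0.68 against ventral controls (adjusted p = 6.73e-05). Ventral minus dorsal controls differed by 0.95, with a 95% interval of -0.60 to 2.51 and an adjusted p of 0.585. The 2 dorsal controls with the most Gad2, 4 and 5, are the ones with high striatal projection neuron genes, a class that is itself GABAergic; the part of that tissue in the Gad2 signal was not tested.

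Lhx6 was close to background everywhere. Its brighter probe was detected in 1 of 8 tumours, 4 of 5 dorsal controls and 1 of 3 ventral controls. The log2 signal was 4.42 to 4.90 in tumours, with a median of 4.56, against 4.92, 5.66, 5.38, 4.82 and 5.19 in dorsal controls and 5.00, 4.71 and 4.76 in ventral controls. The highest tumour, tumour 2, lay inside the range of both control groups. Lhx6 was lower in tumours than in dorsal controls by -0.61 ± 0.14, and the difference of -0.24 from ventral controls did not pass (95% interval -0.60 to 0.13). The probe met the detection rule only with the dorsal controls counted, where it was highest. Its calls are therefore a description, and no p-value is given for them. A probe that is not detected gives a bound on a level and not a level, which holds for 7 of the tumours here.

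Sst encodes somatostatin, the peptide of dendrite-targeting interneurons. The 8 tumours ran from a log2 signal of 4.46 in tumour 10, with a median of 5.71, to 9.96 in tumour 2, and 6 of them were detected. The signal was 11.56, 11.48, 11.13, 11.46 and 11.22 in dorsal controls and 11.22, 10.36 and 10.98 in ventral controls. All tumours were below every control, with tumour 2 close under ventral control 2. Sst was lower by -5.09 ± 0.75 than in dorsal controls (adjusted p = 4.06e-05), a 33.98-fold difference, and by -4.57 ± 0.90 than in ventral controls (adjusted p = 0.000808). The tumours that were not detected give a bound, so these sizes are not exact. Between the regions Sst differed by -0.52, with a 95% interval of -2.57 to 1.53.

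Pvalb encodes a calcium buffer of fast-spiking interneurons. Its log2 signal in tumours was 4.83 at the lowest, 6.25 at the median and 9.47 at the highest, which was again tumour 2, and 7 tumours were detected. The dorsal controls had 13.08, 12.40, 12.88, 11.28 and 9.76, and the ventral controls had 10.16, 10.76 and 10.06. Every tumour was below every control, but tumour 2 and dorsal control 5 were separated by far less than dorsal controls 1 and 5 were from each other. The log2 difference was -5.38 ± 0.74 against dorsal controls (adjusted p = 1.98e-05) and -3.83 ± 0.88 against ventral controls (adjusted p = 0.00285). Within chips 1, 2 and 3 the tumour minus dorsal difference was -7.97, -3.99 and -3.00. Ventral and dorsal controls overlapped through dorsal control 5 and differed by -1.55 (95% interval -3.57 to 0.47, adjusted p = 0.439).

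Vip, the peptide of interneurons that inhibit other interneurons, was detected in 2 of 8 tumours, 4 of 5 dorsal controls and 1 of 3 ventral controls. The tumours had a lowest log2 signal of 4.27, a median of 4.34 and a highest of 6.50, in tumour 2. Dorsal controls 1 to 5 had 9.14, 9.59, 8.84, 7.35 and 4.51, and the ventral controls had 8.09, 4.77 and 4.70. Thus dorsal control 5 and ventral controls 2 and 3, all on chip 3, were as low as the tumours, and the groups overlapped. The difference from dorsal controls was -3.19 ± 0.77 (adjusted p = 0.0027), and -4.03 without dorsal control 5 (adjusted p = 6.84e-05). With the replicate number as a block it was -2.09 and did not pass (adjusted p = 0.0881). Since 6 of the tumours were not detected, their signal is a bound and these differences are not exact sizes. On chip 3 the tumours differed from dorsal control 5 by -0.20, whereas on chips 1 and 2 the tumour minus dorsal difference was -4.70 and -2.93. Chip and tissue cannot be told apart for these controls, since dorsal control 5 also had high striatal and low glutamatergic gene signal. The difference from ventral controls, -1.16, did not pass (95% interval -3.09 to 0.77), and the difference from the mean of both control groups, -2.17 at adjusted p = 0.0142, did not pass without ventral control 1 (-1.61, adjusted p = 0.0559).

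Npy, the neuropeptide Y of many somatostatin cells, was detected on every array. Tumours ran from a log2 signal of 6.02 in tumour 10, with a median of 7.73, to 11.21 in tumour 2. The dorsal controls had 11.57, 12.07, 11.96, 11.42 and 10.98, and the ventral controls had 8.46, 7.64 and 7.58, with no overlap between the regions. Tumour 2 lay within the dorsal range, while 4 tumours were below every ventral control and 3 were above every one. Npy was lower in tumours than in dorsal controls by -3.66 ± 0.73 (adjusted p = 0.000603), and it differed from ventral controls by 0.05 (95% interval -1.78 to 1.88, adjusted p = 0.97). The fall against the mean of both control groups, -1.80 ± 0.65 at adjusted p = 0.0289, did not pass when tumour 5, 6, 9 or 10 or ventral control 1 was left out (adjusted p = 0.0556, 0.0566, 0.0503, 0.0556 and 0.0702). It did not pass with median scaling in place of quantiles (-1.60, adjusted p = 0.0617) or with no detection filter (adjusted p = 0.0687).

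Cck, a peptide of basket interneurons and of pyramidal neurons, was detected in 4 of 8 tumours and in all controls. The tumours had a lowest log2 signal of 4.30, a median of 5.45 and a highest of 10.71, in tumour 2. The dorsal controls had 11.87, 12.20, 11.94, 11.41 and 8.52, with dorsal control 5 far below the others, and the ventral controls had 7.25, 8.14 and 6.32. Tumour 2 was above dorsal control 5 and above every ventral control, and the other 7 tumours were below every dorsal control. Cck was lower than in dorsal controls by -5.13 ± 0.95 (adjusted p = 0.000335), by -5.79 without tumour 2 (adjusted p = 4.64e-06) and by -5.79 without dorsal control 5 (adjusted p = 0.000147). Tumours that were not detected give a bound, so the Cck differences are not exact sizes. With no background correction the difference from dorsal controls was -3.55 (adjusted p = 0.000518). The difference from ventral controls was -1.17 and did not pass (95% interval -3.57 to 1.22). Against the mean of both control groups it was -3.15 (adjusted p = 0.00557), -3.81 without tumour 2 (adjusted p = 8.75e-05), and -1.21 with the replicate number as a block, which did not pass (adjusted p = 0.156). The mean log2 signal of 9 glutamatergic neuron genes was 7.63 in tumour 2 and 4.99 to 6.03 in the other tumours, against 10.1, 10.3, 10.2, 9.51 and 7.84 in dorsal controls 1 to 5 and 7.09 to 7.28 in ventral controls. On both measures tumour 2 was the highest tumour and dorsal control 5 the lowest dorsal control, but tumour 2 was below dorsal control 5 for these genes and above it for Cck. The part of pyramidal neurons in the Cck signal was not tested.

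Calb2, which encodes the calcium buffer calretinin, was low in tumours only when set against the ventral brain. Tumours ran from a log2 signal of 4.35, not detected, in tumour 10, with a median of 6.82, to 8.33 in tumour 5. The dorsal controls had 7.44, 8.11, 7.66, 7.51 and 6.35, and the ventral controls had 12.47, 12.69 and 12.51. Every tumour was below every ventral control, and tumours and dorsal controls overlapped. Probe 1 was lower in tumours than in ventral controls by -5.84 ± 0.71 (adjusted p = 9.94e-06), and probe 2 by -4.81 ± 0.39 (adjusted p = 1.65e-07). Against dorsal controls neither probe passed, at -0.70 (95% interval -1.97 to 0.56, adjusted p = 0.351) and -0.30 (95% interval -0.99 to 0.39, adjusted p = 0.473). Against the mean of both control groups the 2 probes were lower by -3.27 and -2.55 (adjusted p = 8.63e-05 and 2.28e-06). Tumours 5, 6 and 7, on chip 3, had 8.33, 8.12 and 8.22 and were above every dorsal control. Tumours 2 and 3, on chip 2, had 7.05 and 6.59, and tumours 8, 9 and 10, on chip 1, had 5.37, 5.65 and 4.35, below every dorsal control. Within chips 1, 2 and 3 the tumour minus dorsal difference was -2.31, -0.94 and 1.87, so its direction depended on the chip, while the controls did not follow that order, with 7.44 for dorsal control 1 on chip 1 and 6.35 for dorsal control 5 on chip 3. Whether the tumours differ by chip or by tissue cannot be told apart.

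**Figure D2:**
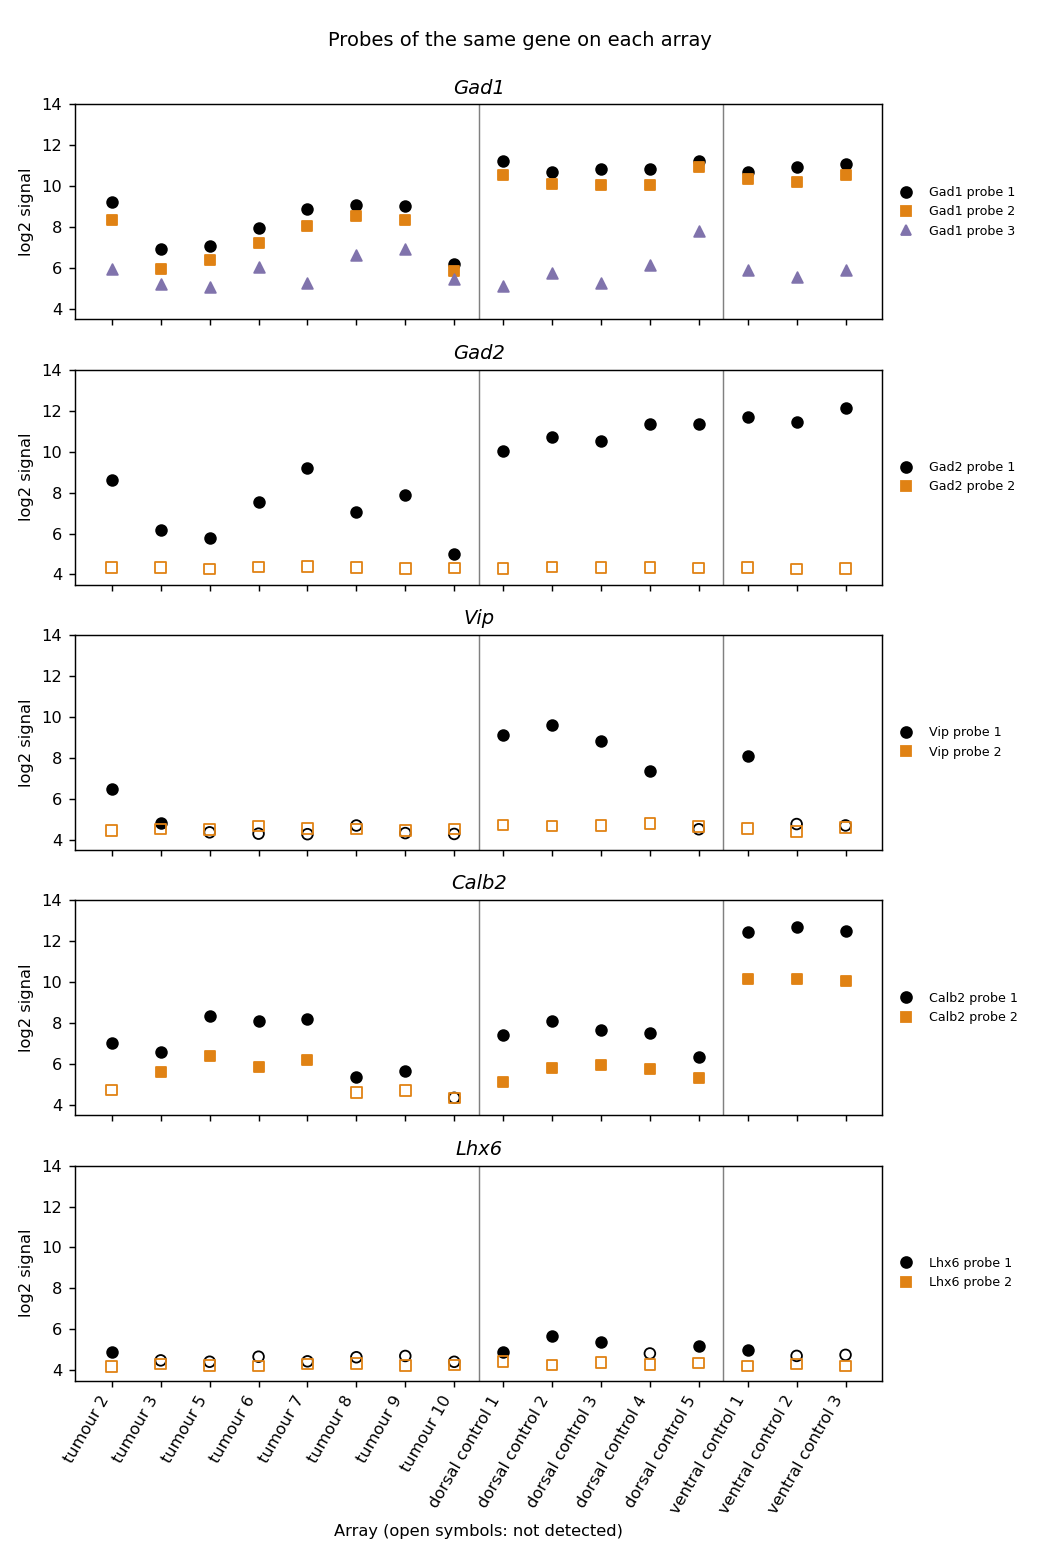
Normalised log2 signal of every probe of the 5 genes with several probes, on each of the 16 arrays, tumours first; open symbols are not detected. The first 2 Gad1 probes and both Calb2 probes move together, Gad1 probe 3 does not, and the second probes of Gad2, Vip and Lhx6 are not detected on any array.

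Between the control regions, Calb2 and Npy were the genes that differed. Calb2 was higher in ventral than in dorsal controls by 5.14 ± 0.76 for probe 1 (adjusted p = 0.000366) and 4.51 ± 0.42 for probe 2 (adjusted p = 3.65e-06). Both probes passed under each of the 26 and 25 alternatives tried for them. Npy was lower in ventral controls by -3.71 ± 0.93 (adjusted p = 0.0198), with all 3 ventral controls below all 5 dorsal controls. That Npy call was lost when any ventral control was left out (adjusted p = 0.0513 without ventral control 1, 0.0817 without 2 and 0.0954 without 3), and with chip as a block (-2.67, adjusted p = 0.137; the values within chips 1 and 3 were -3.11 and -3.37). Of the 12 tested probes, 1 was lower and 2 were higher in ventral controls, against 4.08% and 4.10% of all 23131 probes. The number lower was 0 without any 1 of the ventral controls, 3 without dorsal control 5 and 2 without tumour 2.

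Cck was near the threshold between regions. Its signal in ventral controls was below every dorsal control, at a log2 difference of -3.95 ± 1.22 that missed the threshold (adjusted p = 0.0583). Cck passed without dorsal control 5 (-4.62, adjusted p = 0.0231) and without tumour 2, which only changes the shared spread (adjusted p = 0.00699). Vip differed by -2.03 and did not pass (adjusted p = 0.279), and of 25 alternatives 22 did not pass either, while it passed without dorsal control 5 (-2.88, adjusted p = 0.0271). With dorsal controls 4 and 5 both left out, an alternative added after the data were seen, Npy, Cck and Vip all passed as lower in ventral controls. Gad1, Gad2, Sst, Pvalb and Lhx6 did not pass between regions. With array weights, which give arrays unequal weight in the fit, Gad2 passed as higher in ventral controls (1.20, adjusted p = 0.0312). Under the same weights Pvalb (-2.08, adjusted p = 0.00454) and Lhx6 (-0.40) passed as lower, the latter as a description. Pvalb also passed with the replicate number as a block (-2.46, adjusted p = 0.0296), while within chips 1 and 3 its ventral minus dorsal difference was -2.92 and 0.65. For Gad1, Gad2, Sst and Pvalb the tumours had the lowest level and the regions did not separate at the threshold. For Npy the dorsal controls were highest, and for Calb2 the ventral controls were, with tumours and the other region not separated by the test. The dorsal controls were highest for Cck too, but its regions did not separate at the threshold.

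**Figure D3:**
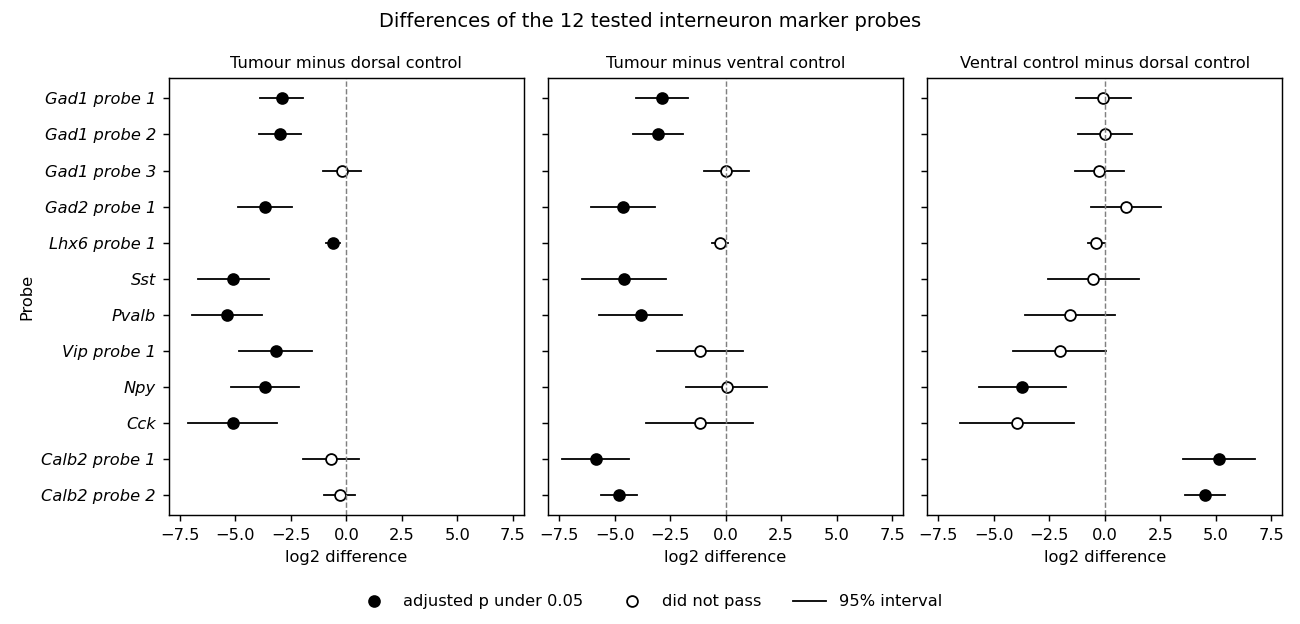
Log2 differences (points) with 95% intervals for the 12 tested probes in tumour minus dorsal, tumour minus ventral and ventral minus dorsal comparisons; filled points had an adjusted p under 0.05 in limma. Gad1 probes 1 and 2, Gad2, Sst and Pvalb have filled points against both regions, Vip, Npy, Cck and Lhx6 against the dorsal controls, and Calb2 against the ventral controls.

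The markers were not equally low in every tumour. Tumour 2 had the highest signal in 7 of the 9 genes and was the tumour in which all 9 were detected, with a mean log2 deviation of -0.85 from the mean of the 2 control group means. Tumour 10 was lowest in 6 genes, had 4 detected and deviated by -4.49. The other 6 tumours deviated by between -3.88 and -2.55. Tumour 2 was above the mean of the control groups for Npy and Cck, with deviations of 1.47 for Npy and 1.502 for Cck. Tumours 9 and 10 were below every control for all 9 genes, and tumour 2 for 4. The same counts were not made over all genes, so these are a description. They include probes near background, such as Lhx6 at 4.70 in tumour 9 and 4.71 in ventral control 2, both not detected.

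**Figure D4:**
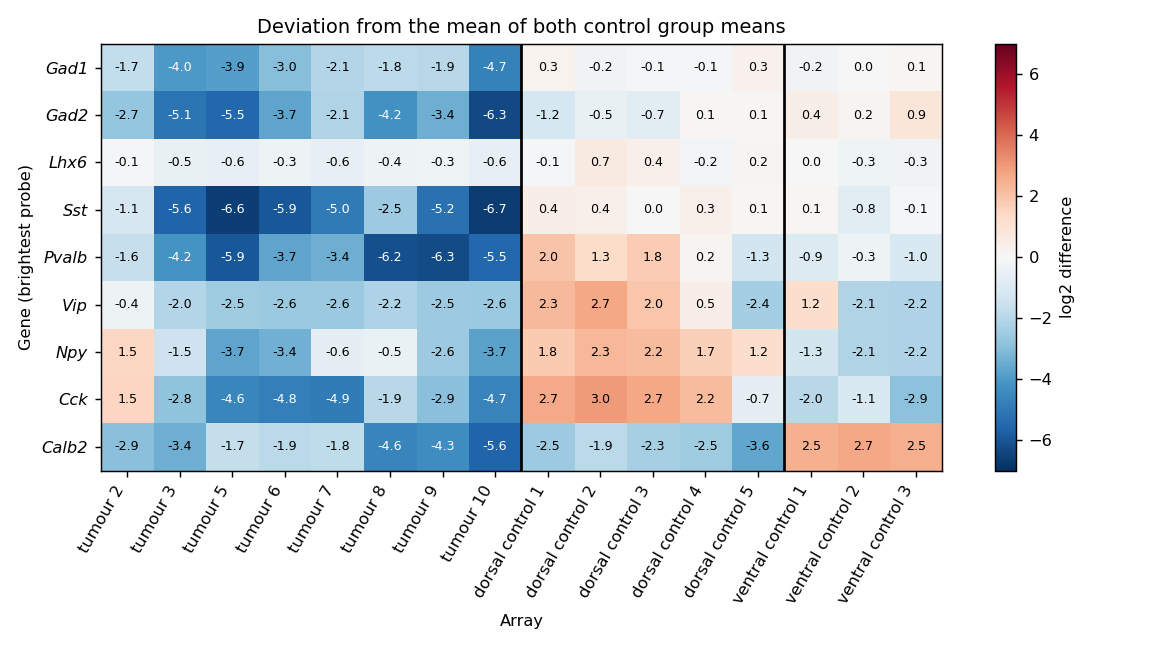
Log2 deviation of each array (columns, tumours at the left) from the mean of both control group means, for the brightest probe of each of the 9 tested genes (rows). Tumour 2 is the palest tumour, tumour 10 among the darkest, and Calb2 is positive in ventral controls alone.

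General neuronal genes ran alongside the markers. Of 14 pan-neuronal genes 11 were tested, and 10 of them were lower in tumours than the mean of both control groups, with a median log2 difference of -3.38. Their mean log2 signal was 7.58 to 10.1 in tumours, 11.05 to 12.1 in dorsal controls and 11.5 to 11.6 in ventral controls, with no overlap. Tumour 2 was highest on this measure and tumour 10 lowest, with deviations of -1.53 and -4.10 from the control means. Relative to the pan-neuronal mean of the same array, Gad1 had a median of -0.77 in tumours, -0.86 in dorsal controls and -0.68 in ventral controls, and the ranges overlapped. Gad2 overlapped too, at -2.80 to 0.21 in tumours, -2.03 to 0.30 in dorsal controls and -0.18 to 0.63 in ventral controls. Sst on this scale reached lower values in tumours, with -3.63 to -0.19 in tumours, -1.01 to 0.17 in dorsal controls and -1.28 to -0.36 in ventral controls. Pvalb had a median of -2.03 in tumours, 0.38 in dorsal controls and -1.42 in ventral controls. For 3 genes the tumours lay between the regions, with medians of -1.02, -0.19 and -3.92 for Npy, -2.82, -0.21 and -4.33 for Cck and -4.18, -3.31 and -6.80 for Vip, in tumours, dorsal and ventral controls. Calb2 also lay between, at -2.64 in tumours, -4.48 in dorsal controls and 1.02 in ventral controls. Lhx6 was the other way round from Sst, at -5.25 to -3.17 in tumours, -7.16 to -5.86 in dorsal controls and -6.93 to -6.58 in ventral controls. These ratios shift for dim probes, whose signal cannot fall below background, and they were not tested.

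**Figure D5:**
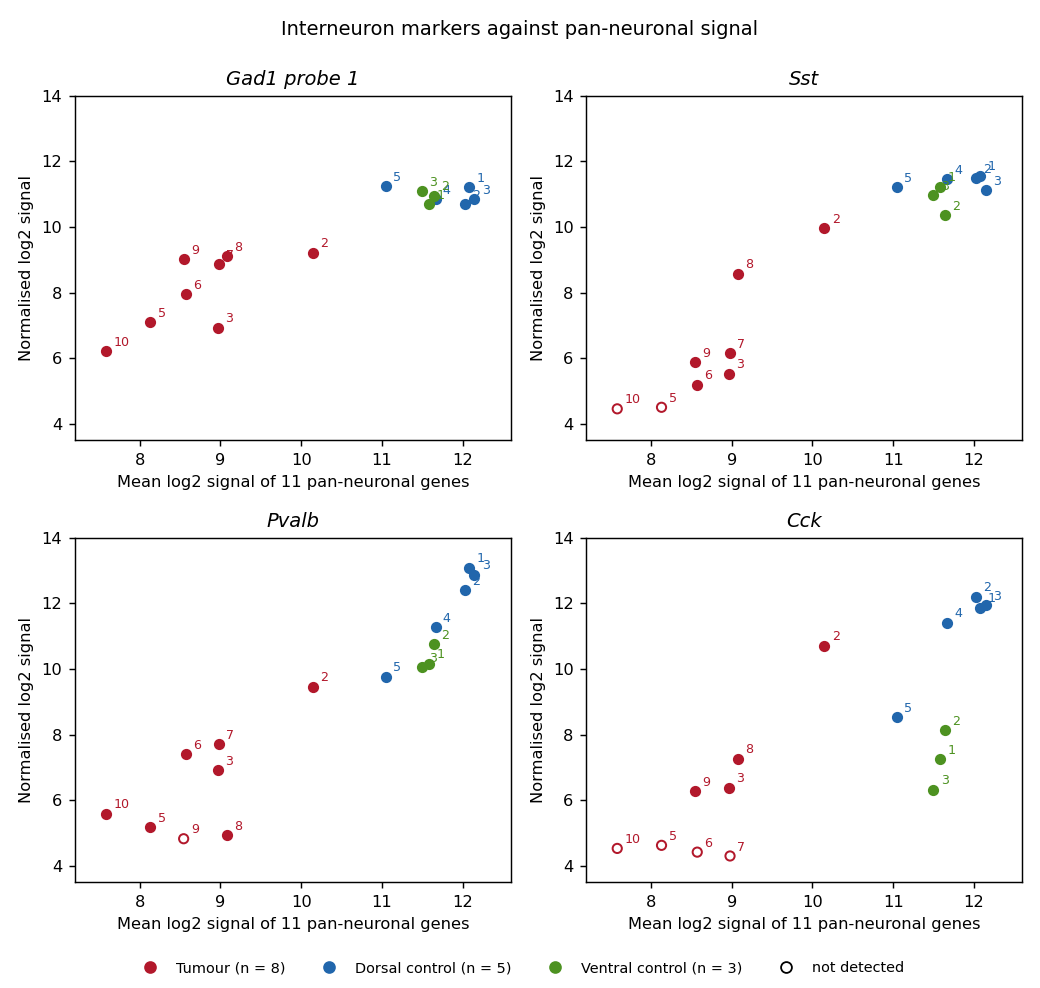
Normalised log2 signal of Gad1, Sst, Pvalb and Cck on each array against the mean log2 signal of 11 pan-neuronal genes on the same array, with sample numbers beside the points. Tumour 2 has the highest value of the tumours on both axes in all 4 panels, and Cck in ventral controls is low although their pan-neuronal signal is high.

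Genes with the most similar profiles over the 16 arrays were found by the root mean square difference after centring each profile on its own mean, as a description. Gad2 was nearest to Slc32a1, the vesicular GABA transporter (0.54 on the log2 scale), and Gad1 to Syn2, a synapsin (0.46). Cck was nearest to Slc30a3, a vesicular zinc transporter (0.82), and then to Slc17a7, the vesicular glutamate transporter of cortical neurons (0.95). Calb2 was nearest to Sncg (1.02), Sst to Gng13 (0.64), Pvalb to Cpne9 (0.78), Npy to Rin1 (0.87) and Vip to Stac2 (0.93). Lhx6 was nearest to Oip5os1 (0.18), where both vary little. No member was among the nearest 2 genes of another.

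The gene lists that follow use 1 probe for each gene. Over all 11755 genes 26.6% were lower and 27.2% higher in tumours than the mean of both control groups, and 4.19% were lower and 5.05% higher in ventral than in dorsal controls. Of 6 genes for GABA transport and breakdown, 5 were tested and 4 were lower in tumours than the mean of both control groups, with a median log2 difference of -1.74 against 0.01 over all genes. Against dorsal controls 3 were lower and against ventral controls 4. Slc32a1 was lower by -4.39 ± 0.64 (adjusted p = 3.02e-05), with every tumour below every control. Slc6a11, a GABA transporter of astrocytes, was lower by -1.93 ± 0.36 (adjusted p = 0.000357), but the call rested on the ventral controls, with -3.21 against them (adjusted p = 8.45e-05) and -0.65 against dorsal controls, which did not pass (adjusted p = 0.203). Aldh5a1, which breaks down succinic semialdehyde made from GABA, was lower by -1.74 ± 0.17 (adjusted p = 3.52e-07). Between regions Slc6a11 was the single member that passed, higher in ventral controls by 2.55 ± 0.52 (adjusted p = 0.00532).

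Of 17 listed transcription factors of interneuron development, 12 were tested, and 5 were lower and 2 higher in tumours than the mean of both control groups, with a median log2 difference of -0.40. Against dorsal controls 3 were lower and 3 higher, and against ventral controls 5 were lower and 1 higher. These counts are not far from the shares over all genes. Dlx1, a homeobox gene of GABAergic precursors, was lower by -3.33 ± 0.48 (adjusted p = 2.81e-05) and was detected in 4 tumours and all controls. Dlx6 was lower by -1.82 and Nkx2-1, the gene of the medial eminence, by -1.08, detected in 1 tumour, 2 dorsal and 3 ventral controls. Nkx2-1 was lower by -1.77 against ventral controls (adjusted p = 1.27e-05), and -0.38 against dorsal controls did not pass (adjusted p = 0.101). Sox6 was higher by 2.48 ± 0.30 (adjusted p = 4.71e-06), in all 8 tumours above every control. Npas3 was higher by 1.28 ± 0.27 (adjusted p = 0.000974), by 2.01 against dorsal controls (adjusted p = 4.9e-05), while 0.54 against ventral controls did not pass (adjusted p = 0.263). Sox6 is also a gene of oligodendrocyte progenitors, whose 7 listed genes averaged 8.29 to 11.2 in tumours, 7.29 to 7.88 in dorsal controls and 8.14 to 8.24 in ventral controls on the log2 scale; their part in the Sox6 signal was not tested. Between regions 1 was lower and 3 were higher in ventral controls. Maf was at least 2.15-fold lower and was not detected there. It met the detection rule through the dorsal controls, where it was high, so no p-value is given. Maf is the 1 gene counted as lower between regions, and that count is a description. Nr2f2 was at least 4.04-fold higher and was not detected in dorsal controls (adjusted p = 0.00921), Npas3 was higher by 1.47 and Nkx2-1 by 1.39.

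Of 24 other listed genes of interneuron subtypes, 17 were tested, and 13 were lower in tumours than the mean of both control groups and 0 higher, with a median of -1.29. Against dorsal controls 11 were lower and against ventral controls 10, again with 0 higher. Lamp5, of neurogliaform cells, was lower by -4.69 ± 0.59 (adjusted p = 6.33e-06). Crhbp, a binding protein for corticotropin-releasing hormone, was lower by -3.33 and Scn1a, a sodium channel of fast-spiking cells, by -2.83. Between regions 2 were lower and 4 higher in ventral controls. Lamp5 was lower by -3.56 (adjusted p = 0.0142) and Cort, a peptide related to somatostatin, by at least 4.38-fold, not detected there. Cort met the detection rule through the dorsal controls, where it was high, so no p-value is given for it. It is 1 of the 2 genes counted as lower between regions, and that count is a description. Sncg was higher by 4.08 (adjusted p = 6.6e-07) and Chodl by 2.49 (adjusted p = 5.46e-05).

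Of 12 receptors for the interneuron peptides, 6 were tested, and 5 were lower in tumours than the mean of both control groups and 0 higher, with a median log2 difference of -1.82. Against dorsal controls 4 were lower and against ventral controls 5. Cckbr, the brain receptor of cholecystokinin, was lower by -3.96 ± 0.54 (adjusted p = 1.5e-05), below every control in all 8 tumours. Sstr2, a somatostatin receptor, was lower by -2.68 (adjusted p = 0.00118), and Npy1r, a neuropeptide Y receptor, by -1.98 (adjusted p = 3.55e-05). Npy2r was detected in ventral controls alone and was at least 2.01-fold higher there than in dorsal controls. It met the detection rule only through the group where it was high, so the fold is a description and no p-value is given.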

How the data were processed

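Total RNA of flash-frozen brain tissue was labelled with biotin and hybridised to Illumina mouse bead arrays, per the labels' protocols. The table deposited by the authors holds, per the file headers, 1 intensity per probe (45281) and array (16), averaged over beads and not normalized, with its detection p-value. A second deposited table holds log2 values made in a way the sources used here do not give. They matched the log2 values below at r = 0.999997 or more on every array and served as an alternative. All columns were used.

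The neqc function of limma 3.58.1 (R 4.3.3) was applied to the intensities, with background taken from the detection p-values, offset 16, quantiles and log2. A probe was tested if its detection p-value was below 0.05 on 3 or more arrays. A limma model (lmFit, eBayes) over the 16 arrays estimated the mean of each group, giving tumour minus dorsal, tumour minus ventral, tumour minus the mean of both control groups and ventral minus dorsal. Errors are standard errors of the contrast unless called SD. Where a gene was not detected on any array of the lower group, its fold is "at least", against the lowest signal of a detected probe on each array. Gene names came from the platform table, coordinates from RefSeq on GRCm38.p6. The model was tested on simulated data.

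Alternatives were background correction, scaling, the deposited log2 values, the detection filter, 1 probe per gene, chip and replicate number as blocks, array weights and each array left out. Deviations of same-numbered samples from their group means correlated at -0.07 to 0.139. Differently numbered samples were not compared, so these values cannot settle whether the replicate numbers pair the samples. The driver of the Cre is not reported here. The members and lists were chosen with earlier results of these data known. Named are all members and the nearest gene of each tested member, with the second nearest for Cck. From each pathway list, up to the 3 largest passing falls and 2 largest passing rises in tumours are named. Between regions, up to the 2 largest passing differences in each direction are named. Nkx2-1 between regions was named after its value was seen. Precision is limited by the few arrays.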

Additional observations from a re-analysis of the deposited data

Results flagged for a closer look

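In 24 groups of marker values, each from the tumours or from the dorsal controls, 3 had a sample far from the others. The rule used lets chance give about 1 in 20 for independent groups. The ventral controls were too few for the rule and were not checked. The groups here share arrays and so are not independent. Tumour 2 had the highest Vip signal of the tumours, 6.50 on the log2 scale, with the next tumour at 4.83 and the lowest at 4.27. It also had the highest Cck signal, 10.71, with the next tumour at 7.27 and the lowest at 4.30. Its pan-neuronal mean, 10.1, was the highest of the tumours too. Dorsal control 5 had the lowest Cck signal of the dorsal controls, 8.52, with the next at 11.41 and the highest at 12.20. Its glutamatergic and striatal gene means were 7.84 and 11.6, against 10.1 and 7.15 in dorsal control 1.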

How the results depend on the processing

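Gad1 probes 1 and 2, Gad2, Sst and Pvalb passed as lower against both regions under every alternative, except Sst against ventral controls with the replicate block (-3.61, adjusted p = 0.051). With the replicate block, 7 marker probes in place of 11 were lower against the mean of both control groups. Vip (-0.58, adjusted p = 0.585), Npy (-0.80, 0.41), Cck (-1.21, 0.156) and Lhx6 (-0.45) did not pass, nor did Vip against dorsal controls (-2.09, 0.0881). The block needs shared numbers and so rests on part of the samples. Leaving out 1 array gave 9 to 11 probes lower against the mean, 9 against dorsal and 7 against ventral controls.

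For ventral minus dorsal controls, the number of marker probes lower (1) was 2 with no background correction, 0 with no detection filter, 0 with chip as a block, 3 with the replicate block, 5 with array weights, 3 without dorsal controls 4 and 5, and 0 to 3 when leaving out 1 array. The number higher (2) was 1 with 1 probe per gene. Over all probes the count between regions (1891) was 1260 with the stricter filter, 1242 with chip as a block, 6647 with array weights and 964 to 2055 when leaving out 1 array. With 1 probe per gene the 4 counts were 6348, 5890, 4784 and 1111 of fewer features, in place of 11736, 10830, 8517 and 1891. Median scaling made 62.9% of the calls between regions higher, against 50.1%.

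Differences that changed sign had not passed in any setting. For Gad1 probe 3, the difference from the mean of both control groups was 0.13 with median scaling, 0.0407 with array weights, 0.24 without dorsal controls 4 and 5, and -0.24 to 0.14 leaving out 1 array. Its difference from dorsal controls was 0.0731, 0.11, 0.44 and -0.42 to 0.24 under the same settings. Against ventral controls it was -0.82 with the replicate block, -0.0333 with array weights and -0.12 to 0.15 leaving out 1 array. Between regions it was 0.0666 with the replicate block, 0.15 with array weights, 0.40 without dorsal controls 4 and 5, and -0.46 to 0.20 leaving out 1 array. Between regions Gad1 probe 1 was 0.0386 with median scaling and -0.15 to 0.05 leaving out 1 array, Gad1 probe 2 was -0.22 with chip as a block, -0.0442 with the replicate block and -0.0530 to 0.17 leaving out 1 array, and Sst was 0.25 with chip as a block. Against ventral controls Npy was -0.43 with chip as a block and -0.42 to 0.34 leaving out 1 array, and with the replicate block Vip was 0.92 and Cck 1.20. The causes were not tested. With no background correction the falls were smaller in size (Sst against dorsal controls -3.62, Vip -1.64), since signal near background is compressed there; dim probes such as Lhx6 and Vip are limited by it most.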
